A study of Homo sapiens with 12 samples.

Results

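The claudins are membrane proteins that join neighbouring epithelial cells, and 10 of their genes were followed here in NCCIT human embryonal carcinoma cells: CLDN1, CLDN3, CLDN4, CLDN5, CLDN6, CLDN7, CLDN10, CLDN11, CLDN16 and CLDN18. They were taken by gene symbol from the deposited array values. CLDN16 was chosen by a measured value, its high level in SETD2-depleted cells, so that its values against the control are a description and not a test. The other members and the gene lists below were chosen with earlier results of these data known. Their p-values and shares may therefore not be independent of that choice. All 10 genes were found, each by 1 transcript cluster (the set of probes that reads one transcript), among 18417 genes measured. NCCIT is a line from a germ cell tumour of pluripotent character. RNA was measured on 12 Affymetrix Human Gene ST arrays, 2 in each of 6 conditions. Every condition was a transfection of the same line: siNTC (non-targeting siRNA, labelled as a re-analysis), siWDR5, siEED, siRNF2, siEED+RNF2 (both siRNAs together) and siSETD2. By the paper's methods the dual transfection held both siRNA pools and more transfection reagent than a single one. No control of matching dose is labelled. Cells of every condition were grown in the same serum-containing medium, and the knockdowns were transient (siRNA pools for WDR5, EED and RNF2) and not deletions, so that part of each target's transcript remained. Nothing in the labels ties the 2 arrays of a condition to separate cultures, and the p-values below reflect array-to-array spread, which may be technical. All 5 differences from control rest on the same 2 siNTC arrays, so those comparisons are not independent of each other, and whatever sets the re-analysed siNTC arrays apart in handling cannot be told apart from the absence of a knockdown.

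Claudins span the membrane and assemble into the strands of the tight junction, where their outer loops seal the gap between cells or form pores for particular ions. Which claudins a cell makes therefore sets the permeability of the sheet it belongs to. WDR5 is a core subunit of the MLL/COMPASS complexes that place a histone H3 methylation mark at active promoters. EED belongs to the Polycomb repressive complex PRC2, whose H3 methylation marks silenced genes, RNF2 is the ubiquitin ligase of the complex PRC1, and SETD2 methylates H3 in the bodies of transcribed genes. The comparisons ask how claudin RNA differs in cells depleted of each.

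RNA of the targets WDR5, EED and SETD2 was lower in the matching knockdowns. WDR5 fell by 1.21 on the log2 scale in siWDR5 (adjusted p = 4.26e-07, limma), and EED fell by 1.29 in siEED (adjusted p = 6.39e-07) and fell by 1.61 in siEED+RNF2 (adjusted p = 5.3e-08). SETD2 was lower by a log2 difference of -1.75 in siSETD2, given without a p because that contrast chose CLDN16. EED also fell in siRNF2, by 0.66 (adjusted p = 5.41e-05), although siRNF2 was not aimed at it. The RNF2 transcript was not analysed here. Of the 7 embryonal carcinoma markers measured, none had a mean under 5.27, the value below which 30% of all gene means lay, and their means ran from 6.81 to 12.7. All 4 measured markers of the kidney thick ascending limb, the tubule segment in which CLDN16 normally acts, had means between 3.999 and 4.89, below that value.

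CLDN16, also called paracellin, is a claudin of the kidney that supports reabsorption of magnesium and calcium between cells. Its log2 values were 5.26 and 5.38 on the siNTC arrays. Their mean of 5.32 is close to 5.27, the value below which 30% of all gene means lay. The ratios below are thus taken against a dim control value. The siWDR5 arrays gave 6.69 and 6.88 and the siEED arrays 6.53 and 6.63. Values of 6.96 and 6.80 were found with siRNF2, against 6.70 and 6.45 with siEED+RNF2. In siSETD2 they were 9.24 and 9.21. The control arrays were the lowest of the 12, the siSETD2 arrays the highest, and the other 4 knockdowns lay between them without overlapping either. The log2 difference from siNTC was 3.90 in siSETD2 (95% confidence interval 3.69 to 4.11), a ratio of 14.9. With a standard error of 0.10 each, it was 1.46 for siWDR5 (ratio 2.75), 1.26 for siEED (ratio 2.39), 1.56 for siRNF2 (ratio 2.95) and 1.25 for siEED+RNF2 (ratio 2.38). In bulk RNA a few cells with much CLDN16 and many cells with a little cannot be told apart. No p is given for these differences, since the siNTC arrays took part in choosing the gene. For the same reason the interval and standard errors describe array spread only, make no allowance for that choice and test nothing. Over every alternative processing and with any single array left out, the siSETD2 difference ran from 3.84 to 3.96, and that in siEED+RNF2 from 1.13 to 1.38.

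**Figure D1:**
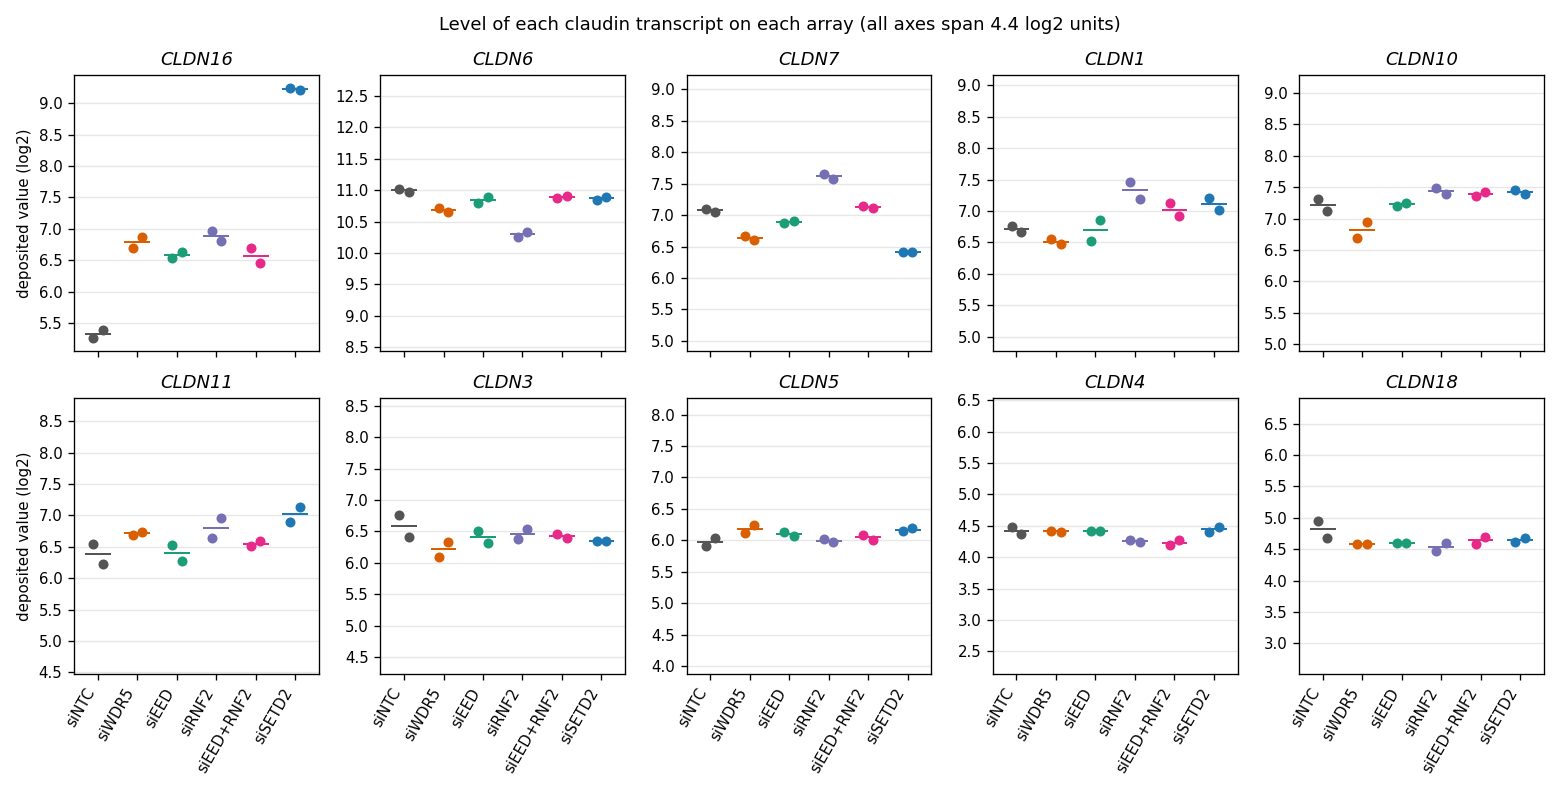
Deposited log2 value of each of the 10 claudin genes on each array (points) with the mean of the 2 arrays of each condition (line). All axes span 4.4 log2 units, but levels of different genes come from different probes and are not to be compared. CLDN16 stands at 5.26 and 5.38 in siNTC and at 9.24 and 9.21 in siSETD2, while 8 of the other 9 claudins range over less than 1 unit.

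Among the 4 knockdowns that took no part in choosing it, CLDN16 means spanned a narrow range, and limma placed 0 of 6 pairwise differences past both thresholds of the call (Benjamini-Hochberg adjusted p under 0.05 over all genes and a fold of at least 1.5), with 3 at an unadjusted p under 0.05. The mean was 6.57 in siEED+RNF2, 6.58 in siEED, 6.78 in siWDR5 and 6.88 in siRNF2, and in this order no neighbours differed by the test. The difference between siEED+RNF2 and siEED was -0.01 (95% interval -0.22 to 0.20, adjusted p = 0.975, limma). The difference between siEED+RNF2 and siRNF2 was the one with the lowest adjusted p (-0.31, 95% interval -0.52 to -0.10, adjusted p = 0.0475), but it lies under the fold threshold. The remaining 4 pairs had adjusted p between 0.0721 and 0.505. The dual knockdown did not stand above either single knockdown. Adding both single differences to the siNTC level gives 8.14, against the measured mean of 6.57.

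In RefSeq order on chromosome 3, CLDN1 lies inside the span of CLDN16 on the opposite strand. Ordered by start position, the 3 nearest measured genes before CLDN16 are P3H2, TPRG1 and LPP. Those after it in this order are CLDN1, TMEM207 and IL1RAP. P3H2, a prolyl hydroxylase that modifies collagen, was at 6.80 and 6.97 in siNTC and at 8.61 and 8.85 in siSETD2, a log2 difference of 1.84 (95% interval 1.64 to 2.05). In the other knockdowns P3H2 lay between 6.94 and 7.23. None of its differences there reached 1.5-fold, with 0.31 in siWDR5 (adjusted p = 0.027) and 0.35 in siEED+RNF2 (adjusted p = 0.0118). TMEM207 stayed between 4.35 and 4.57 over all 12 arrays, IL1RAP, an interleukin-1 receptor subunit, between 4.76 and 5.12, and TPRG1 between 4.87 and 5.47. The means of TMEM207, IL1RAP and TPRG1 were 4.41, 4.93 and 5.17, all below 5.27, near the low end of all genes. Their flat values therefore allow no firm statement that these genes were unchanged. LPP, a focal adhesion protein, had its lowest value in siEED+RNF2, with a log2 difference of -0.55 (adjusted p = 2.19e-05) that is also below 1.5-fold. The values of CLDN16 in siSETD2 were accompanied by higher P3H2 on one side, and by CLDN1 at 7.20 and 7.02 against 6.75 and 6.67 in siNTC.

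**Figure D2:**
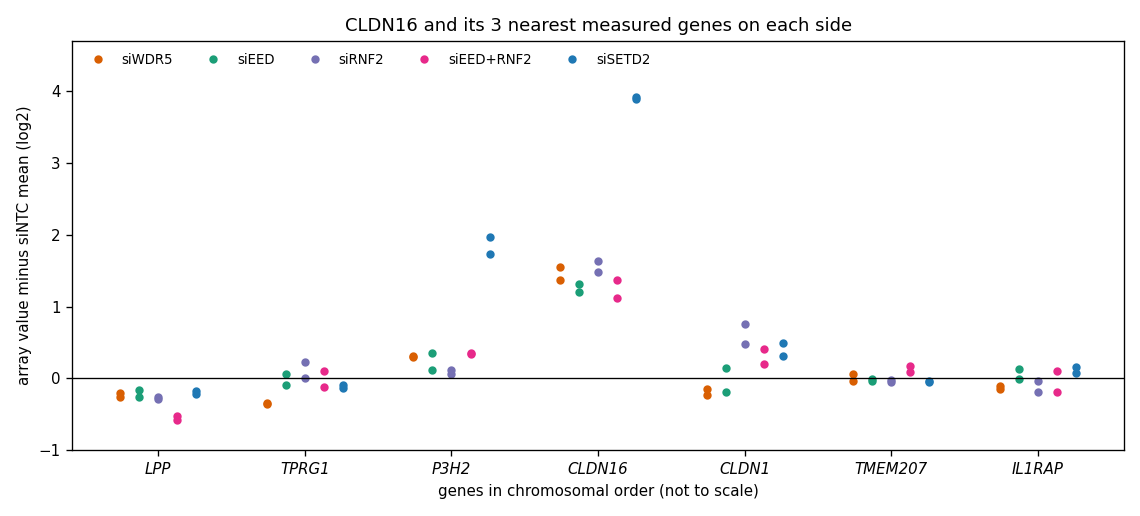
Value of each knockdown array minus the siNTC mean (log2) for CLDN16 and the 3 nearest measured genes before and after it. Genes are ordered by start position and not to scale, and CLDN1 lies inside the span of CLDN16. In siSETD2 the mean differences are 3.90 for CLDN16 and 1.84 for P3H2, and TMEM207 and IL1RAP stay near 0. The means of TMEM207, IL1RAP and TPRG1 lie below 5.27, near the low end of all genes.

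The promoter sequences show how unlike the members are in CpG content, the feature by which MLL and Polycomb target sites are often grouped. They are the 250 bases before RefSeq start sites (GRCh38.p14), read 5′ to 3′ on the gene's strand, with each CG pair in capitals. Both listed starts of CLDN16 are shown, with the start of CLDN1, which lies within the same locus, and that of CLDN6, the member with the opposite response to siRNF2.
CLDN16 first start, chr3:190290111-190290360, plus strand: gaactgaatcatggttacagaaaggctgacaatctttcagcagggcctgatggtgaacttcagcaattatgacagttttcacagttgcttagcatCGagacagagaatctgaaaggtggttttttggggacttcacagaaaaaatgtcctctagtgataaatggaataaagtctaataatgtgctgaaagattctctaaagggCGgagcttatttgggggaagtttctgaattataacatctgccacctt
CLDN16 second start, chr3:190387913-190388162, plus strand: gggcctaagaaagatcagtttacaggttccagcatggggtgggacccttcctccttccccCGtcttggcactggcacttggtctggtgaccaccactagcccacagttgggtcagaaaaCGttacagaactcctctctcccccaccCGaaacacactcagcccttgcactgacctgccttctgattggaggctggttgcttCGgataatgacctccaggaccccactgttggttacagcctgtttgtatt
CLDN1, chr3:190322447-190322696, minus strand: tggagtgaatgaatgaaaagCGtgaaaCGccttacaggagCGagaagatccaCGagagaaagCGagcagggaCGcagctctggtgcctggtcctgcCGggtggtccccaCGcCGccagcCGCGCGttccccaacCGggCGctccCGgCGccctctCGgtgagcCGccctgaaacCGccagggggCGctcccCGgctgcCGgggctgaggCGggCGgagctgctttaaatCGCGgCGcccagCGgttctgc
CLDN6, chr16:3018184-3018433, minus strand: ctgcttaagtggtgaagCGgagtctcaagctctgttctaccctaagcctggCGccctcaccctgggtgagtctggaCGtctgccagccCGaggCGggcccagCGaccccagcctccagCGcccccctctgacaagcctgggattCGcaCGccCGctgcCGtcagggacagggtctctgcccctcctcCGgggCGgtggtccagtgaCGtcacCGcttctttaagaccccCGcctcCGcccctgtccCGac

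The CLDN16 windows hold 2 and 4 CG pairs, with ratios of observed to expected CG of 0.208 and 0.218. The CLDN1 window holds 28 pairs (ratio 0.948) and the CLDN6 window 18 (ratio 0.643). A window was counted as rich in CpG where at least 50% of its bases were G or C and the ratio was at least 0.6, which 45.0% of all 35116 windows of the same length met. Of the 14 windows found for 9 members, 5 met it: those of CLDN1 and CLDN6 and 1 of the starts each of CLDN7, CLDN10 and CLDN11. CLDN3 lay just under the limit at 0.594, and no window of CLDN4, CLDN16 or CLDN18 met it. CLDN5 had no entry. This is a description of the reference sequence, and no methylation was measured on these arrays.

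In siRNF2, the claudins with the largest differences apart from CLDN16 were CLDN6, CLDN1 and CLDN7. CLDN6 is a claudin of the early embryo and of pluripotent cells. Its values were 11.02 and 10.98 in siNTC and 10.26 and 10.34 in siRNF2, which were the lowest of all 12 arrays and did not overlap any other condition. CLDN6 fell by 0.70 on the log2 scale (95% interval -0.84 to -0.56, adjusted p = 5.11e-06, limma), a 1.62-fold decrease. CLDN1, needed for the barrier of the skin and used by hepatitis C virus to enter cells, was at 6.75 and 6.67 in siNTC and at 7.47 and 7.19 in siRNF2. It rose by 0.62 (95% interval 0.35 to 0.89, adjusted p = 0.00161), or 1.54-fold. That call is lost when the arrays are centred on their medians (0.49), without siRNF2 array 1 (0.48) and without siNTC array 2 (0.58).

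CLDN7, a partner of the adhesion protein EPCAM in epithelia, was at 7.10 and 7.05 in siNTC and 7.66 and 7.58 in siRNF2. Its siRNF2 arrays were the highest of the 12 and its log2 difference was 0.54 (adjusted p = 2.2e-05), below the fold threshold. CLDN11, a claudin of myelin and Sertoli cells, had 6.54 and 6.22 in siNTC and 6.64 and 6.95 in siRNF2, a log2 difference of 0.42 (adjusted p = 0.0232) that is also below it. Apart from CLDN16, 2 of 9 members were called in siRNF2, where 10.2% of all 18417 genes were called in either direction. Over those 9 members the median log2 difference was 0.02, beside -0.04 for all genes.

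In siWDR5 the other members were mostly below control, but by little. CLDN7 was at 6.67 and 6.61 and had a log2 difference of -0.43 (adjusted p = 0.000197). CLDN10, which forms ion-selective pores in kidney and glands, was at 6.70 and 6.95 against 7.31 and 7.12 in siNTC, a difference of -0.39 (adjusted p = 0.00587). CLDN3, a widespread epithelial claudin, was at 6.10 and 6.33 against 6.76 and 6.41, a difference of -0.38 (adjusted p = 0.028). CLDN6 was at 10.71 and 10.66, a difference of -0.31 (adjusted p = 0.00252). CLDN5, the claudin of the endothelial barrier, was at 6.11 and 6.24 against 5.91 and 6.04, a difference of 0.20 (adjusted p = 0.0469). None of these reached 1.5-fold, so that limma called 0 of the 9 other members in siWDR5, while at an unadjusted p under 0.05 it found 2 higher and 5 lower. The background was 6.02% of all genes called. The median over the 9 members was -0.24, beside -0.03 for all genes.

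In siEED and siEED+RNF2 the claudins other than CLDN16 stayed close to control. In siEED 0 of 9 were called by limma (0 higher and 3 lower at an unadjusted p under 0.05), with 6.37% of all genes called, and their differences ran from -0.21 to 0.13. In siEED+RNF2 0 of 9 were called (1 higher and 1 lower at an unadjusted p under 0.05), with 11.5% of all genes called, and their differences ran from -0.19 to 0.31. The upper end was CLDN1, at 7.12 and 6.92, with an adjusted p of 0.0625. CLDN4, an epithelial receptor of Clostridium perfringens enterotoxin, had a difference of -0.19 in siEED+RNF2 (adjusted p = 0.029), on values between 4.195 and 4.49 over all arrays. CLDN18, known from stomach and lung, lay between 4.48 and 4.95, and its largest difference was -0.27 in siRNF2 (adjusted p = 0.0223). The means of CLDN4 and CLDN18 were 4.37 and 4.64, both below 5.27, near the low end of all genes.

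**Figure D3:**
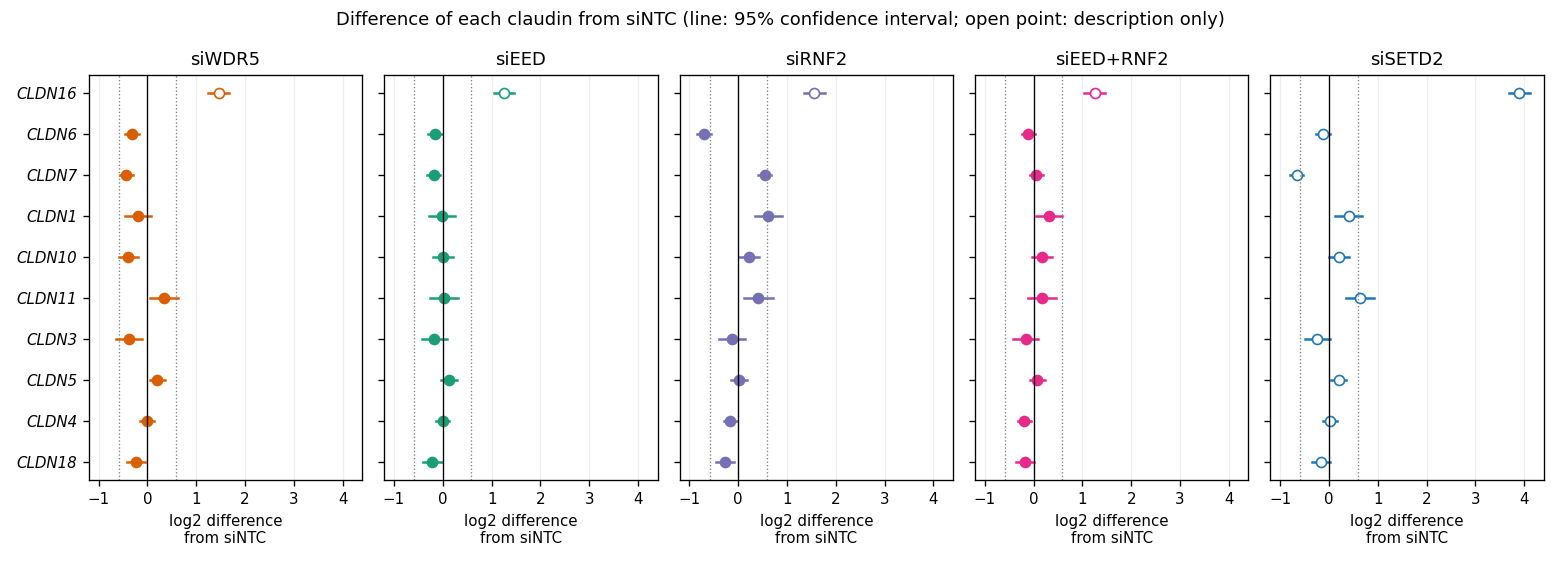
Log2 difference of each claudin from siNTC in the 5 knockdowns (points) with 95% confidence intervals from limma (lines), with dotted lines at a fold of 1.5. Open points (CLDN16 in every knockdown and every gene in siSETD2) are descriptions because their arrays took part in choosing CLDN16. CLDN16 lies right of the fold line in all 5 panels, and among filled points CLDN6 and CLDN1 in siRNF2 lie outside the dotted lines.

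In siSETD2, the contrast that chose CLDN16, calls are counted here and below as a description only, and no p is printed for any gene. CLDN7 was at 6.42 and 6.41, the lowest of its 12 arrays, and its log2 difference was -0.66 (95% interval -0.79 to -0.53). CLDN11 was at 6.90 and 7.13, with a difference of 0.63 (95% interval 0.35 to 0.92), and without siSETD2 array 2 or siNTC array 2 that value was 0.52 or 0.47. CLDN1 had a difference of 0.40, and the differences of the remaining 6 members ran from -0.24 for CLDN3 to 0.21 for CLDN10. Of the 9 members other than CLDN16, 2 were past both thresholds, CLDN7 and CLDN11, where 5.82% of all genes were, and nothing is read from this count.

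The 4 knockdowns other than siSETD2 were also set against each other, without control arrays, and of these 6 pairs siRNF2 and siWDR5 had the most claudin calls. Pairs with siSETD2 were not tested. CLDN7 was higher in siRNF2 by 0.98 (95% interval 0.85 to 1.11, adjusted p = 7.65e-07, limma), close to a doubling at 1.97-fold. CLDN1 was higher by 0.81 (adjusted p = 0.000384) and CLDN10 by 0.61 (adjusted p = 0.00036), making 3 of 10 members called, where 5.93% of all genes were. The CLDN10 call is lost with median centring (0.48) and without siRNF2 array 1 (0.56) or siWDR5 array 1 (0.48). Between siRNF2 and siEED, which deplete different Polycomb complexes, 2 of 10 members were called, where 1.26% of all genes were. These were CLDN7, higher in siRNF2 by 0.73 (adjusted p = 3.9e-05), and CLDN1, higher by 0.64 (adjusted p = 0.00715). The CLDN1 call is lost without siEED array 1 (0.47) or siRNF2 array 1 (0.50). CLDN6 was lower in siRNF2 than in siEED by a log2 difference of -0.54 (adjusted p = 0.000395), which falls short of 1.5-fold but passes it with median centring or without siEED array 1 (-0.59 in either case).

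Against siWDR5, limma called 0 of the 10 members in siEED (3.33% of all genes) and 0 in siEED+RNF2 (7.02% of all genes). At an unadjusted p under 0.05, and leaving out CLDN16, siEED had 3 members higher and 1 lower, and siEED+RNF2 had 4 higher and 1 lower. CLDN10 in siEED+RNF2 came nearest to a call, with a difference of 0.57 (adjusted p = 0.000509). It passed without siEED+RNF2 array 1 (0.60) or siWDR5 array 2 (0.69), and CLDN1, with a difference of 0.50 (adjusted p = 0.0078), passed without siEED+RNF2 array 2 (0.61). Between siEED+RNF2 and siEED 0 of 10 were called, where 2.91% of all genes were, and apart from CLDN16 2 were higher and 1 lower at an unadjusted p under 0.05.

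Among the 9 members other than CLDN16, the dual knockdown lay furthest from a single one in CLDN6. Its values in siEED+RNF2 were 10.87 and 10.91, close to the 10.79 and 10.89 of siEED, although siRNF2 alone had given 10.26 and 10.34. CLDN6 was higher in siEED+RNF2 than in siRNF2 by 0.59 (95% interval 0.45 to 0.73, adjusted p = 6.09e-05), the only member of 10 called there, where 3.27% of all genes were. Without siRNF2 array 1 or siEED+RNF2 array 2 this difference was 0.55 or 0.58, below the fold threshold. The difference made by siRNF2 was -0.70 without siEED and 0.05 with it. The interaction, which tests the change between these 2 values, was 0.75 (95% interval 0.55 to 0.94, standard error 0.09, adjusted p = 0.000101) and kept its call under every alternative. CLDN6 was the only one of the 9 members other than CLDN16 called for the interaction, where 11.3% of all genes were called. A count of 1 in 9 is near that share, so it marks nothing particular to the claudins. RNF2 RNA was not analysed, so equal depletion of RNF2 in siRNF2 and siEED+RNF2 is not shown. The dual transfection also held more siRNA and reagent than either single one, with no control of matching dose. An interaction of the 2 depletions therefore cannot be told apart from that dose. The siNTC arrays enter the interaction, and CLDN6 lay below them in all 5 knockdowns. A shift of those control arrays would therefore enter the value too. CLDN7 had an interaction of -0.30 (adjusted p = 0.0184), below the fold threshold: its siEED+RNF2 arrays stood at 7.15 and 7.12, lower than siRNF2 alone by a log2 difference of -0.48 (adjusted p = 0.000163). CLDN1 had an interaction of -0.29 (95% interval -0.67 to 0.09, adjusted p = 0.235). For CLDN16 the same quantity was -1.57, given without a p.

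**Figure D4:**
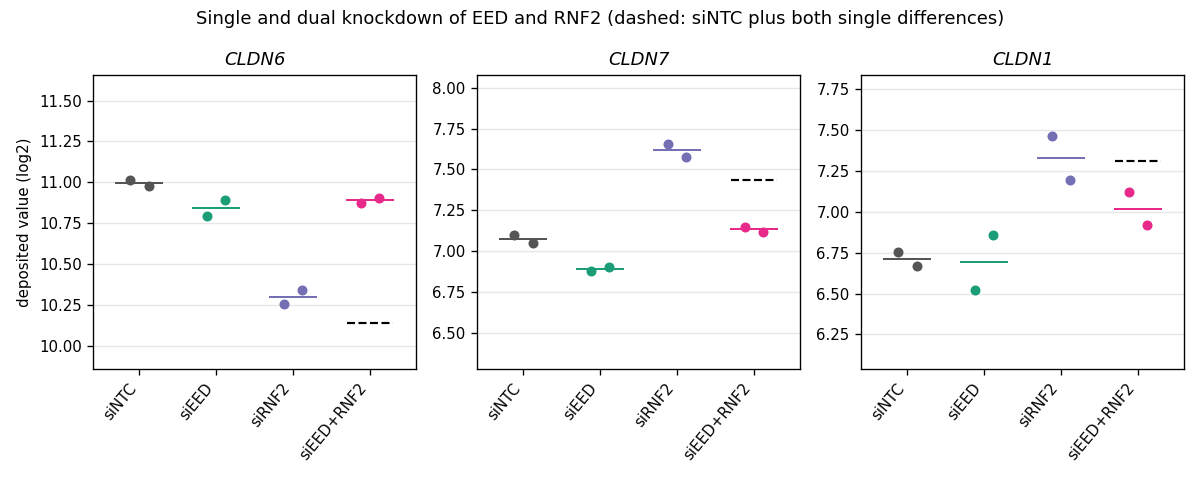
Log2 values of CLDN6, CLDN7 and CLDN1 on each array (points) and their means (lines) in siNTC, siEED, siRNF2 and siEED+RNF2. The dashed line is the level that the siNTC mean plus both single differences would give. For CLDN6 the dual arrays at 10.87 and 10.91 lie above the dashed line at 10.14, and for CLDN7 they lie below it.

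The rest of the claudin family had no calls, and most of it was read by dim probes. Of 14 other claudin genes 13 were measured, and limma called 0 of them in each of the 5 knockdowns, siSETD2 again as a description. At an unadjusted p under 0.05 the numbers higher and lower were 0 and 2 for siWDR5, 0 and 3 for siEED, 1 and 3 for siRNF2, 2 and 2 for siEED+RNF2, and 0 and 2 for siSETD2. Their log2 differences ran from -0.31 to 0.43. The upper end was CLDN19, the claudin that works together with CLDN16 in the kidney, at 6.66 and 6.99 in siRNF2 against 6.20 and 6.59 in siNTC (adjusted p = 0.0253). In siSETD2 CLDN19 was at 6.65 and 6.61, within the range of its other arrays. CLDN9, the gene next to CLDN6 on chromosome 16, was at 5.27 and 5.19 in siRNF2 against 5.34 and 5.38 in siNTC (log2 difference -0.13, adjusted p = 0.292). The mean of 8 of the 13 lay below 5.27, near the low end of all genes, so their flat values allow no firm statement that they were unchanged.

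Of 32 measured partners of the claudins in the tight junction, the share called was 6.25% for siWDR5, 3.12% for siEED, 9.38% for siRNF2 and 12.5% for siEED+RNF2, beside 6.02%, 6.37%, 10.2% and 11.5% of all genes. The 2 called in siWDR5 were both lower, MARVELD2, which seals the corners where cells meet, with a log2 difference of -0.80 (adjusted p = 1.57e-05, limma) and the scaffold PATJ with -0.71 (adjusted p = 1.95e-05). In siEED the 1 called was AMOT, a polarity and Hippo pathway scaffold, which rose by 0.90 (adjusted p = 3.39e-06). In siRNF2 3 rose: AMOT by 1.02 (adjusted p = 7.67e-07), the adhesion molecule JAM2 by 0.78 (adjusted p = 2.44e-05) and the polarity protein PARD3 by 0.68 (adjusted p = 7.67e-05). In siEED+RNF2 AMOT rose by 0.91 (adjusted p = 1.36e-06) and PARD3 by 0.59 (adjusted p = 0.000202), while the scaffold MAGI3 fell by 0.61 (adjusted p = 3.68e-05) and the adhesion molecule CXADR fell by 0.60 (adjusted p = 8.4e-05). In siSETD2, counted as a description, 0 of the 32 were past both limma thresholds, and 5 higher and 13 lower had an unadjusted p under 0.05. The list medians ran from -0.13 in siSETD2 to 0.04 in siRNF2. TJP1, the scaffold to which claudins bind, was called in none of the knockdowns, and its differences ran from -0.46 in siSETD2 to -0.11 in siRNF2.

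Among 22 measured epithelial adhesion and keratin genes, RAB25 had the largest difference in each of the 5 knockdowns. RAB25, a small GTPase of apical membrane traffic in epithelia, was at 9.61 on both siNTC arrays and between 7.88 and 8.73 on the arrays of every knockdown. The log2 difference of RAB25 was -1.28 for siWDR5, -1.73 for siEED, -0.94 for siRNF2 and -1.496 for siEED+RNF2 (adjusted p between 2.83e-08 and 1.63e-06, limma), and it was -1.52 for siSETD2. EPCAM, with which CLDN7 associates, fell by 0.71 in siEED (adjusted p = 0.000124) and by 0.90 in siEED+RNF2 (adjusted p = 1.04e-05), where CLDN7 had differences of -0.18 and 0.06. The desmosomal gene DSP rose by 0.84 in siWDR5 (adjusted p = 8.64e-06) and by 0.71 in siEED (adjusted p = 2.48e-05), and PKP2, another desmosomal gene, rose by 0.88 in siRNF2 (adjusted p = 1.19e-06) and by 0.64 in siEED+RNF2 (adjusted p = 1.04e-05). KRT8, an early epithelial keratin, fell by 0.80 in siEED (adjusted p = 3.38e-05) and in siRNF2 by 0.80 (adjusted p = 1.89e-05). KRT18, its partner, fell by 0.64 in siRNF2 (adjusted p = 0.000174), and the protease inhibitor SPINT1 fell by 0.94 in siWDR5 (adjusted p = 9.95e-06). The shares of the 22 genes called were 13.6% for siWDR5, 18.2% for siEED, 18.2% for siRNF2, 13.6% for siEED+RNF2 and 13.6% for siSETD2, beside 6.02%, 6.37%, 10.2%, 11.5% and 5.82% of all genes. By direction, 1 higher and 2 lower were called for siWDR5, 1 and 3 for siEED, 1 and 3 for siRNF2, 1 and 2 for siEED+RNF2, and 0 and 3 for siSETD2. This list was chosen with earlier results of these data known, so its shares are no test of the list.

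**Figure D5:**
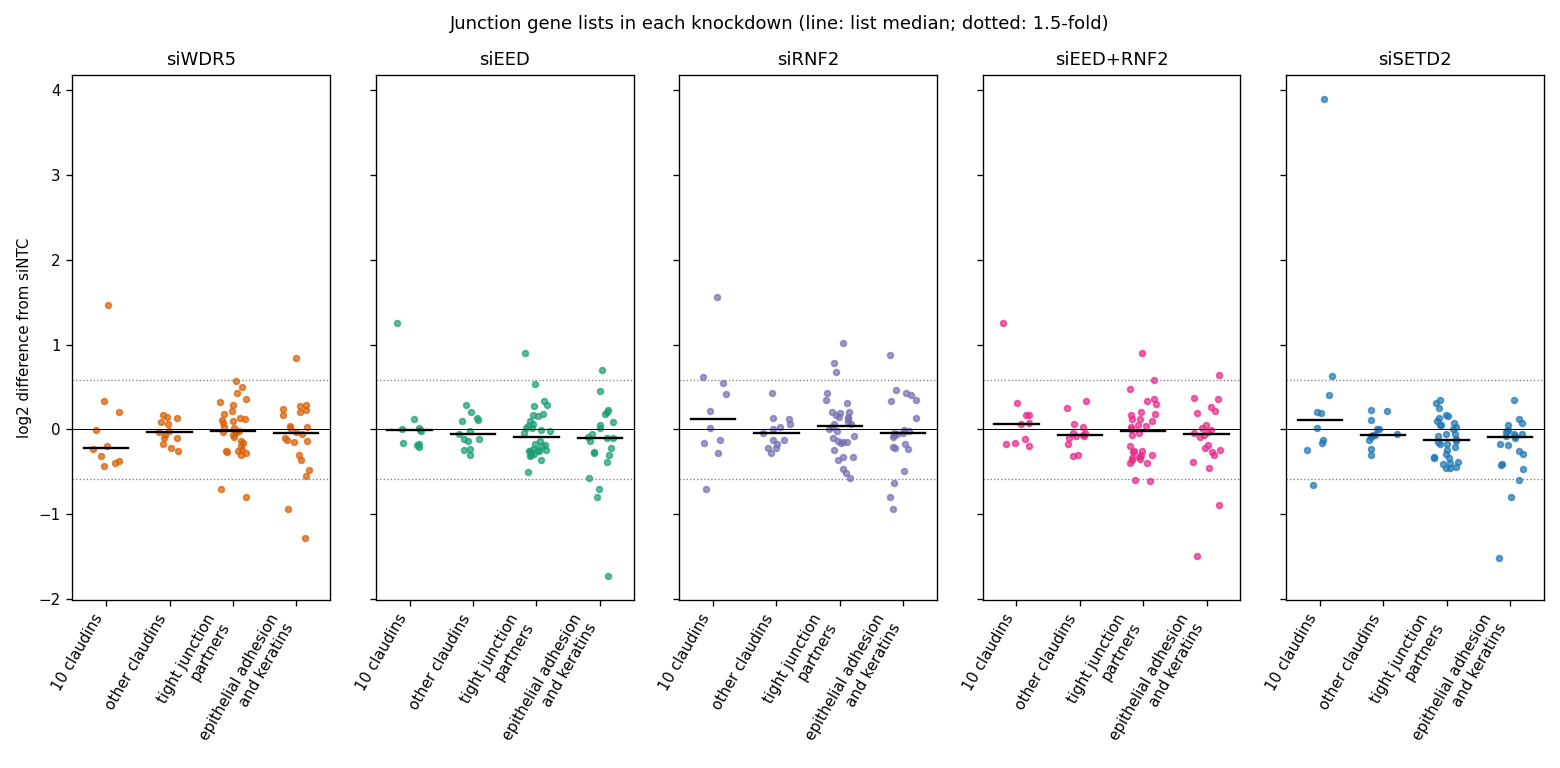
Log2 difference from siNTC of each gene (points) of 4 lists in the 5 knockdowns, with the median of each list (line) and dotted lines at a fold of 1.5. CLDN16 is the highest point of every panel, and the 13 other claudins all lie between the dotted lines.

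Short lists for other cell types held calls in some knockdowns. The 9 mesenchymal transition genes had 0 called in siWDR5 and siEED (limma, with 2 and 4 at an unadjusted p under 0.05). SNAI2, a repressor of epithelial genes, fell by 0.87 in siRNF2 (adjusted p = 3.54e-06), and ZEB1, another, fell by 0.79 in siEED+RNF2 (adjusted p = 1.15e-06). These are 11.1% of the list in either knockdown, beside 10.2% and 11.5% of all genes. In siSETD2, again as a description, 3 (33.3%, beside 5.82% of all genes) were past both thresholds, SNAI2 at -0.91, ZEB2 at -0.74 and the matrix protein FN1 at -1.14. The summed level of a list is given as the mean of its genes on each array. For the 7 embryonal carcinoma markers it was 11.01 and 11.03 on the siNTC arrays, 11.2 on both siSETD2 arrays, and between 10.7 and 10.9 in the other 4 knockdowns. Of these markers LIN28A fell by 0.68 in siWDR5 (adjusted p = 1.64e-05) and L1TD1 fell by 1.08 in siEED+RNF2 (adjusted p = 1.98e-07), and DPPA4 and L1TD1 were higher in siSETD2 by 0.59 and 0.67. For the 4 kidney markers it stayed between 4.39 and 4.604 over all 12 arrays, at 4.402 and 4.53 in siSETD2 and at 4.492 and 4.604 in siNTC, and limma called 0 in any knockdown (0 to 1 at an unadjusted p under 0.05). Of the 6 trophoblast markers TFAP2A and HAND1 were lower in siWDR5, by -0.64 (adjusted p = 2.67e-05) and -1.59 (adjusted p = 6.92e-07), and in siSETD2, by -1.61 and -1.94, and HAND1 was lower in siEED by -0.81 (adjusted p = 6.58e-05). Those calls are 33.3% of the list in siWDR5 and in siSETD2 and 16.7% in siEED, beside 6.02%, 5.82% and 6.37% of all genes. Of 7 endoderm and 6 neuroectoderm markers limma called 0 in every knockdown (2 to 4 and 1 to 2 at an unadjusted p under 0.05). In either list 3 markers had means below 5.27, so their flat values allow no firm statement that they were unchanged. Over the 18417 measured genes the share ran from 5.82% to 11.5% by knockdown. Counts of 0 in lists as short as those here, the kidney list included, are near that share and mark nothing particular to these genes. The part of these other genes in the claudin values was not tested.

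The genes whose levels followed CLDN16 most closely over the 12 arrays were C1GALT1C1, a chaperone for mucin-type glycosylation (Pearson r = 0.973), MINAR1 (0.971), GCLM of glutathione synthesis (0.968), the chaperone CANX (0.964) and the serotonin receptor HTR2C (0.961). These values describe 6 conditions measured on 2 arrays each, and the siSETD2 arrays stand apart from the rest. On the 10 arrays without siSETD2, which still hold the siNTC arrays with the lowest CLDN16 values, r for these 5 genes was between 0.846 and 0.864. By rank over all 12 arrays the likeness was weaker for some: Spearman's rho was 0.66 for C1GALT1C1, 0.92 for MINAR1, 0.77 for GCLM, 0.87 for CANX and 0.65 for HTR2C. For CLDN1 the nearest were PXYLP1 (0.953), NEMP2 (0.953) and TM7SF3 (0.929), and for CLDN6 the splicing factor SF3A1 (0.955), the small nuclear RNA gene RNVU1-4 (0.949) and the protocadherin PCDHB5 (0.941). The likeness is over the arrays of shared conditions and says nothing of a shared control.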

How the data were processed

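RNA of NCCIT cells was hybridised by the authors to 12 arrays. The authors deposited 1 table of log2 values for 33297 transcript clusters, made per the labels with GCRMA and Partek (versions and settings not given in the sources used here). GCRMA subtracts a modelled background and normalizes arrays by their distribution. How this acts on differences of dim probes was not tested. All 12 value columns were used (0 unused).

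Clusters naming 1 gene were kept (19460, of which 19429 matched RefSeq by gene number), 1754 naming several genes and 12083 naming none were left out, and the brightest cluster represented each gene. A limma model (version 3.58.1, R 4.3.3) with a mean per condition over 12 arrays was fitted to 18417 genes with Benjamini-Hochberg adjustment, and a call needed an adjusted p under 0.05 and a fold of 1.5. It was checked on simulated data. No build is named in the files, so RefSeq served for names, gene order and promoter windows only.

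The members and lists were chosen with earlier results of these data known. Named were all members, the siRNA targets, and up to 3 called genes per list and knockdown. Also named were 3 neighbours on each side of CLDN16 by start position, the 5 genes most like CLDN16, and 3 most like each other called member. CLDN19, CLDN9 and TJP1 were added after their values were seen. Replicates correlated at 0.996 to 0.997. Only 2 arrays per condition limit the precision. Alternatives were a replicate block, the compared groups alone, quantile normalization, median centring, leaving out the dimmest 30%, a variance trend with robust moderation, the mean of a gene's clusters, no fold threshold, and leaving out each array.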

Additional observations from a re-analysis of the deposited data

Results flagged for a closer look

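CLDN6 had a siRNF2 effect that differed with siEED by a tested interaction of 0.75 on the log2 scale (limma, adjusted p = 0.000101): the difference was -0.70 for siRNF2 alone against siNTC, and 0.05 for siEED+RNF2 against siEED. This interaction ran from 0.70 to 0.88 over the alternatives. It was called for 1 of the 9 members other than CLDN16, beside 11.3% of all genes. That count is near the share of all genes and marks nothing particular to the claudins. RNF2 RNA was not analysed, and the siNTC arrays enter the value. The larger dose of siRNA and reagent in the dual transfection cannot be told apart from it.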

How the results depend on the processing

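No called result changed direction under the alternatives tried, where leaving out an array assumes that the lone array varies like the other conditions. Without the fold threshold, far more of all 18417 genes passed the adjusted p. They numbered 6234, 6520, 7927, 7755 and 5829 in the order siWDR5, siEED, siRNF2, siEED+RNF2 and siSETD2. Members numbered 6 for siWDR5, 2 for siEED, 6 for siRNF2 and 2 for siEED+RNF2 with CLDN16, whose choice used the control arrays. Without CLDN16 they numbered 5, 1, 5 and 1. In the order of the 5 knockdowns, the 13 other claudins gave 1, 2, 2, 2 and 2. The 32 tight junction partners gave 15, 14, 14, 20 and 13, and the 22 epithelial genes 10, 13, 11, 13 and 9. For the interaction 2 members other than CLDN16 passed, beside 5614 of all genes. CLDN16 between siEED+RNF2 and siRNF2 (-0.31) passed too. These counts are to be read beside those of all genes. With median centring 2 tight junction partners were called in siEED and 5 in siRNF2. Centring moved all differences by -0.13 in siRNF2, and 775 of 2028 called genes were then higher there, against 1174 of 1875. With quantile normalization 2 partners were called in siEED+RNF2. Leaving out 1 array gave 0 to 1 other claudins in siRNF2 (1 without siRNF2 replicate 1 or siNTC replicate 2). The tight junction partners were 1 to 3 in siEED (3 without siNTC replicate 2), 1 to 4 in siEED+RNF2 (1 without siEED+RNF2 replicate 2, 2 without siNTC replicate 1) and 0 to 1 in siSETD2 (1 without siNTC replicate 2). The cause of these changes was not tested.

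The labels do not say whether replicate numbers pair the arrays. Deviations of same-numbered arrays correlated between -0.11 and 0.16 over 15 pairs of conditions, 1 of them over 0.1. Low correlations cannot show that the arrays were unpaired, since a pairing with small effects would give them too. With a replicate block 2 of the 9 members other than CLDN16 were called in siRNF2 and 0 in siWDR5, siEED and siEED+RNF2, as without it, the interaction again called 1, and no other call counted here changed. The dim probes of CLDN4, CLDN18, TMEM207, IL1RAP and TPRG1 allow no firm statement on small differences.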
